A study of Mus musculus with 10 samples.

Results

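The genes described here belong to the relay between the Toll-like receptor (TLR) adaptors and NF-kB, together with the genes that restrain it, in sorted mouse microglia. They were taken by name from the deposited count table and are 10 of its 40789 genes: the kinase genes Irak1, Irak2, Irak3 and Irak4, the ubiquitin ligase gene Traf6, the kinase genes Map3k7 and Map3k8, and Tollip, Tnfaip3 and Tnip1. All 10 passed the filter on low counts and were tested. A dose of 4 mg/kg lipopolysaccharide (LPS), a component of the bacterial cell wall, went into the peritoneum of 5 mice, and 5 control mice received saline. All mice were CX3CR1+/egfp females of strain C57BL6/J, 2 to 3 months old, so 1 copy of the fractalkine receptor gene carried a green fluorescent reporter in both groups. Mice were killed 24 hours after the injection, cells with a high level of the reporter were sorted from the cortex, and each library came from 1 mouse.

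Microglia are the resident macrophages of the brain. When a TLR or the interleukin 1 receptor binds its ligand, the adaptor MyD88 recruits IRAK4 and then IRAK1 and IRAK2, and TRAF6 builds ubiquitin chains that activate TAK1, the kinase encoded by Map3k7. TAK1 switches on the IkB kinases and the JNK and p38 branches of MAP kinase signalling, while TPL2, the product of Map3k8, drives the ERK branch. IRAK-M (Irak3), TOLLIP, the ubiquitin-editing enzyme A20 (Tnfaip3) and its partner ABIN1 (Tnip1) hold the relay back, and some of these brakes are induced by NF-kB itself.

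Total counts per library were 12928007 to 15332121 in LPS and 11577295 to 15274421 in saline (p = 0.841 by an exact two-sided permutation test). Summed over 8 marker genes, RNA of microglia was lower in LPS (15791 to 28106 CPM) than in saline (53215 to 60654 CPM), with p = 0.00794 by the same exact test, its lowest value for 5 against 5 mice. CPM are counts scaled to the library total, here with TMM factors. All 7 monocyte markers were detected, and their sum was 78.1 to 219 CPM in LPS and 14.4 to 22.3 CPM in saline (exact p = 0.00794). Ms4a4c and Fn1 averaged 99.4 and 34.4 CPM in LPS and 4.19 and 0.198 CPM in saline, while the defining gene Ly6c2 averaged 0.225 CPM in LPS and 0 in saline and Ccr2 was lower in LPS (2.45 ± 1.54 CPM, SD, n = 5) than in saline (mean 10.2 CPM). The sum of 7 neutrophil markers, of which Mpo was at 0 in all libraries, was 2.01 to 23.8 CPM in LPS and 0.162 to 1.12 CPM in saline (exact p = 0.00794). Of these only Cxcr2 passed the filter on low counts, with means of 4.82 CPM in LPS and 0.112 CPM in saline. S100a8 averaged 3.52 and 0.0170 CPM. The defining gene Ly6g averaged 0.0607 CPM in LPS and 0 in saline, and Camp 0.0828 and 0.0381 CPM. The sum of 3 endothelial markers was lower in LPS (4.77 to 10.6 CPM) than in saline (48.2 to 72.3 CPM, exact p = 0.00794), nearly all of it Pecam1, with Cldn5 at 0 in all libraries. Sums for border macrophage (7.42 to 32.2 and 11.03 to 15.2 CPM), astrocyte (4.31 to 9.07 and 5.37 to 9.42), neuron (2.43 to 5.70 and 3.35 to 7.03), oligodendrocyte (26.7 to 50.01 and 33.7 to 59.9) and lymphocyte markers (0 to 1.27 and 0 to 0.988) overlapped between LPS and saline. Within the border macrophage list Cbr2 averaged 10.99 CPM in LPS and 0.740 CPM in saline, with no overlap. Mrc1 averaged 7.32 and 10.3 CPM and Folr2 2.08 and 1.59 CPM, both overlapping, and Lyve1, Cd163 and Pf4 were too scarce to be tested. The part of other cells in the results was not tested, and in bulk RNA fewer cells of a type and less RNA per cell cannot be told apart.

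The relay genes did not move as a block. Under edgeR's quasi-likelihood test with Benjamini-Hochberg adjustment at 0.05, Map3k8 and Irak4 were higher in LPS, Traf6, Map3k7 and Tollip were lower, and the other 5 were not called. Among all 13793 genes tested 45.0% were called, 22.4% higher and 22.5% lower, so 5 called genes of 10 is close to the share of all genes. Their median log2 fold change was 0.19, against 0.0014 over all genes tested, and their median absolute log2 fold change was 0.49 against 0.56. The 5 LPS mice lay apart from the 5 saline mice for Irak4, Map3k7, Map3k8 and Tollip, that is for 4 genes of 10, where 29.8% of all genes tested showed no overlap.

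**Figure D1:**
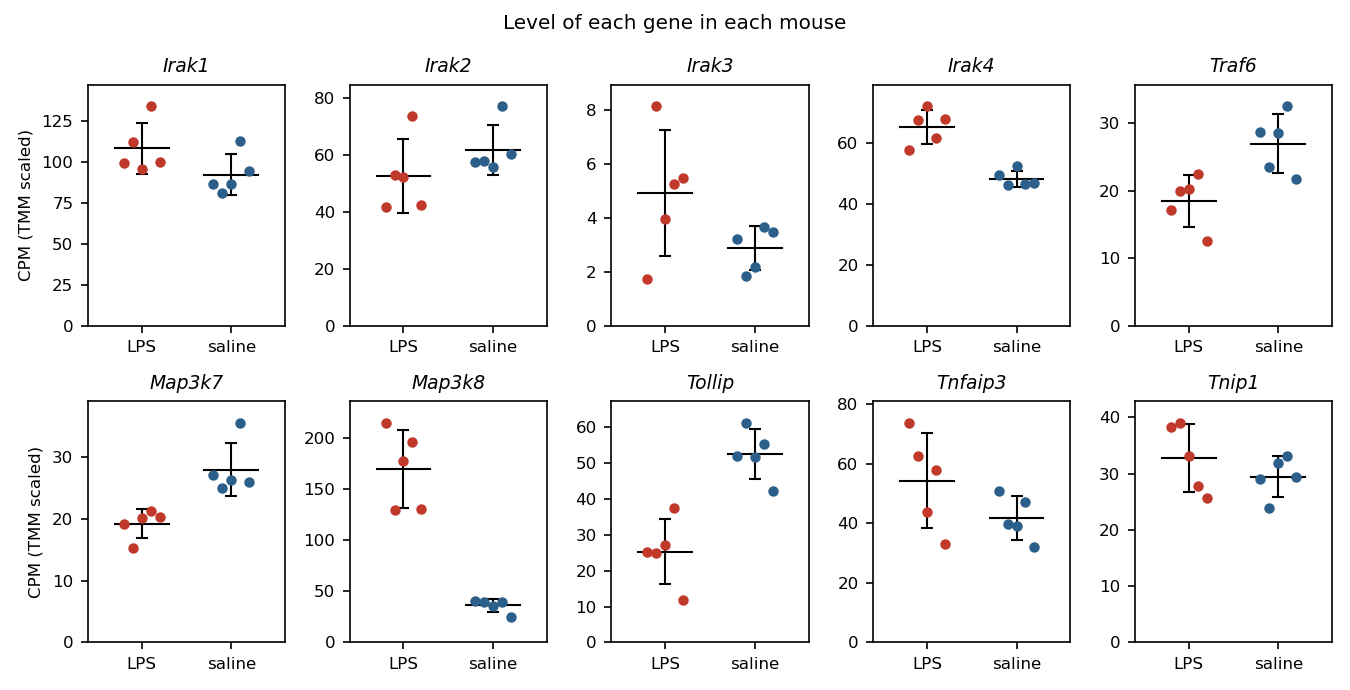
TMM-scaled CPM (vertical axes, starting at 0) of the 10 genes in each of 5 LPS mice (red, left) and 5 saline mice (blue, right), with the mean and SD in black. Map3k8 lies at 129 to 214 CPM in LPS and 25.2 to 40.8 CPM in saline, and the groups overlap for Irak1, Irak2, Irak3, Traf6, Tnfaip3 and Tnip1.

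At the top of the relay, Irak4 was higher in LPS. Irak4 (Entrez gene 266632, chromosome 15, 94543613 to 94568317 on GRCm38) encodes the kinase that starts the cascade on MyD88. It had 57.4, 67.3, 71.8, 61.5 and 67.5 CPM in LPS mice 1 to 5, and 49.3, 46.1, 52.2, 46.4 and 46.8 CPM in saline mice 1 to 5. Every LPS mouse was above every saline mouse, in a narrow band in both groups. The rise was 1.35-fold (log2 fold change 0.44 ± 0.07 SE, edgeR adjusted p = 0.00749). Of the 5021 exon bases of Irak4 in GENCODE M21, 395 are shared with exons of Twf1 on the opposite strand, whose level was 148 CPM in LPS and 145 CPM in saline (edgeR adjusted p = 0.871).

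Irak1 (Entrez gene 16179, chromosome X, 74013914 to 74023921), the kinase that IRAK4 acts on, had 99.8, 112, 95.96, 134 and 100.2 CPM in LPS mice and 86.9, 80.95, 86.5, 113 and 94.6 CPM in saline mice. Saline mouse 4 lay above 4 of the 5 LPS mice, so the groups overlapped (log2 fold change 0.23 ± 0.12, edgeR adjusted p = 0.186). Irak2 (Entrez gene 108960, chromosome 6, 113638467 to 113695026), a relative with an atypical kinase domain, had 41.6, 52.8, 52.3, 73.65 and 42.3 CPM in LPS mice and 57.4, 57.7, 55.6, 76.9 and 60.1 CPM in saline mice. LPS mouse 4 lay above every saline mouse but one, and LPS mice 1 to 3 and 5 lay below all of them. The difference was not called (log2 fold change -0.23 ± 0.17, edgeR adjusted p = 0.275), but it was called lower once LPS replicate 4 was left out, at -0.38 (edgeR adjusted p = 0.0360).

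Irak3 (Entrez gene 73914, chromosome 10, 120141648 to 120202130) encodes IRAK-M, a pseudokinase brake of macrophages. It was scarce, with 21, 106, 51, 83 and 70 raw counts in LPS mice and 49, 22, 27, 59 and 49 in saline mice. These were 1.76, 8.14, 3.96, 5.26 and 5.48 CPM in LPS, against 3.23, 1.87, 2.18, 3.68 and 3.49 CPM in saline. LPS mouse 1 was the lowest of all 10 mice and the other LPS mice were above every saline mouse. With all mice the difference was not called (log2 fold change 0.76 ± 0.40, edgeR adjusted p = 0.0990). Leaving out LPS replicate 1 gave a call, at 0.99 (edgeR adjusted p = 0.0193). Without LPS replicate 2, the highest mouse, the log2 fold change was 0.51 and not called (edgeR adjusted p = 0.273). Tmbim4, on the opposite strand and sharing 192 of the 3676 exon bases of Irak3, was higher in LPS (243 CPM in LPS and 116 CPM in saline, edgeR adjusted p = 0.000367), and whether counting used strand is not stated in the labels.

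In the middle of the relay the ubiquitin ligase gene and its target kinase were lower in LPS. Traf6 (Entrez gene 22034, chromosome 2, 101678420 to 101701668) had 17.1, 19.9, 20.2, 22.5 and 12.6 CPM in LPS mice and 28.6, 23.5, 28.5, 32.4 and 21.65 CPM in saline mice. LPS mouse 4 was above saline mouse 5, and no other LPS mouse was above any saline mouse. The fall was 1.46-fold (log2 fold change -0.55 ± 0.18, edgeR adjusted p = 0.0229). The call was lost with a correction for gene length, at a log2 fold change of -0.15 (edgeR adjusted p = 0.423). It was also lost at -0.42 without LPS replicate 5 (edgeR adjusted p = 0.0509), at -0.52 and -0.48 without saline replicates 3 or 4 (0.0534 and 0.0614) and at -0.47 with ranges of mouse numbers as a term (0.0585).

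Map3k7 (Entrez gene 26409, chromosome 4, 31963492 to 32023470), which encodes TAK1, had 19.2, 15.4, 20.2, 21.3 and 20.3 CPM in LPS mice and 27.1, 24.95, 26.3, 35.6 and 26.1 CPM in saline mice. No LPS mouse reached the lowest saline mouse. It fell 1.46-fold (log2 fold change -0.54 ± 0.12, edgeR adjusted p = 0.0105). The call held with each mouse left out, but was lost with a correction for gene length, at a log2 fold change of -0.06 (edgeR adjusted p = 0.722).

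Map3k8 had the largest change of the 10 genes. It encodes TPL2, a kinase that is kept inactive in a complex with the NF-kB precursor p105 and, once released, activates the MEK and ERK kinases. Map3k8 (Entrez gene 26410, chromosome 18, 4331325 to 4352953) had 214, 129, 178, 196 and 130.3 CPM in LPS mice and 40.8, 39.6, 35.6, 39.4 and 25.2 CPM in saline mice. The lowest LPS mouse was far above the highest saline mouse. The rise was 4.69-fold (log2 fold change 2.23 ± 0.20, edgeR adjusted p = 7.25e-07), rank 116 of 13793 genes by p, and 3.73% of genes tested had a larger change in either direction. Over the 22 alternative settings its log2 fold change lay between 2.12 and 2.32.

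Of the brakes, Tollip fell and the A20 pair was not called. Tollip (Entrez gene 54473, chromosome 7, 141881580 to 141902461) encodes an adaptor that binds IRAK1 and dampens signalling. It had 25.2, 24.97, 27.3, 37.4 and 11.9 CPM in LPS mice and 51.9, 61.3, 51.9, 55.5 and 42.2 CPM in saline mice. The highest LPS mouse stayed below the lowest saline mouse, and the LPS mice spread 3.14-fold between lowest and highest. Tollip fell 2.07-fold (log2 fold change -1.05 ± 0.28, edgeR adjusted p = 0.00203), and its log2 fold change was -1.23 to -0.86 over the 22 alternatives, called in all of them.

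Tnfaip3 (Entrez gene 21929, chromosome 10, 19000910 to 19015410) encodes A20, which removes and edits the ubiquitin chains built by TRAF6. It had 73.6, 62.5, 43.7, 58.0 and 33.1 CPM in LPS mice and 50.85, 39.9, 39.03, 47.0 and 32.1 CPM in saline mice. LPS mouse 5 was the lowest LPS mouse, and LPS mice 3 and 5 lay among the saline mice (log2 fold change 0.38 ± 0.23, edgeR adjusted p = 0.138). Leaving out LPS replicate 5 gave a call, at 0.53 (edgeR adjusted p = 0.0281). Without LPS replicate 1, the highest mouse, the log2 fold change was 0.25 and not called (edgeR adjusted p = 0.314). Tnip1 (Entrez gene 57783, chromosome 11, 54910787 to 54962956), whose product ABIN1 brings A20 to ubiquitin chains, had 38.2, 39.0, 33.15, 27.8 and 25.6 CPM in LPS mice and 29.1, 23.8, 31.9, 33.2 and 29.4 CPM in saline mice. LPS mice 1 and 2 were above every saline mouse and LPS mice 4 and 5 were below 4 of the 5, and the difference was not called (log2 fold change 0.15 ± 0.15, edgeR adjusted p = 0.448).

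A20 and ABIN1 are textbook NF-kB targets, and the promoters shown here are those of the A20 pair and of Map3k7, the called gene with a match. RefSeq promoters (GRCm38.p6, 250 bases before to 50 after the start, 5′ to 3′ on the gene's strand) were found for 9 of the 10 genes and searched on both strands for the 10-base kappaB consensus, the binding motif of NF-kB. Map3k8, the gene with the largest rise, had no promoter entry and was not searched. Capitals mark the matches, which overlap each other in Tnip1.
Tnfaip3, chr10:19015361-19015660, minus strand: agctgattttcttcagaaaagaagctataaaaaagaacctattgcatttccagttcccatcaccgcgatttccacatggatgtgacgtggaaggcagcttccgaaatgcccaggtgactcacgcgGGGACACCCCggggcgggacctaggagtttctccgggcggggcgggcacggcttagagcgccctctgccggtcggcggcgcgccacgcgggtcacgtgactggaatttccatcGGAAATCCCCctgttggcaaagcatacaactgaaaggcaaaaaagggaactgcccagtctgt
Tnip1, chr11:54962891-54963190, minus strand: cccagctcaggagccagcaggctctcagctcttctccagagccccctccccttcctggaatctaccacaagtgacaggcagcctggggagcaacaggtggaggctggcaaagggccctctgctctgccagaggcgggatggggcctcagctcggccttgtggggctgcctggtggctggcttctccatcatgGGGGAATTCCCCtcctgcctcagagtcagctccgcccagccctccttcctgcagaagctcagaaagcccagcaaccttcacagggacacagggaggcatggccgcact
Map3k7, chr4:31963857-31964156, plus strand: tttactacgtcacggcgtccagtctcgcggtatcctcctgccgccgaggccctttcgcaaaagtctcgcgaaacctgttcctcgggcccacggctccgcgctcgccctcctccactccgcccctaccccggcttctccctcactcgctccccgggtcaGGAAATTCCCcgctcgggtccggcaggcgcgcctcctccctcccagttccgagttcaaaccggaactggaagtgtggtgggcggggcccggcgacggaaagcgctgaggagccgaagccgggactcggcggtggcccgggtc
The matches began 125 and 12 bases before the start of Tnfaip3, 58, 57 and 56 before that of Tnip1 and 92 before that of Map3k7, and Irak1 held a match 18 to 21 bases before its start in both of its overlapping entries. Thus 4 of 9 genes held a match, where 9.55% of 27025 genes and 8.46% of 32851 promoters did. With all mice and TMM scaling none of these 4 genes was called higher and Map3k7 was lower. Tnfaip3 was called higher without LPS replicate 5, and with the correction for gene length Irak1 and Tnfaip3 were called higher and Map3k7 was not called. Windows of Irak2, Irak3, Irak4, Traf6 and Tollip held no match, nor did the other window searched for Tnfaip3 (chr10:19011914-19012213). This says nothing about NF-kB elsewhere in these genes.

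Irak1 and Traf6 are also textbook targets of miR-146a, a microRNA that is itself induced by NF-kB, and their seed matches are shown for that reason. The mature sequence from RefSeq (GRCm38.p6, chr11:43374435-43374456, minus strand) has its seed, bases 2 to 8, in capitals, and the sites from 3′ UTRs of GENCODE M21 transcripts have the matching 7 bases in capitals.
mmu-miR-146a-5p: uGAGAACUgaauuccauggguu
Traf6, chr2:101697947-101697971, plus strand: gctctggtgttgAGTTCTCatttag
Traf6, chr2:101698011-101698035, plus strand: ctggaaggcttaAGTTCTCaagtac
Traf6, chr2:101698823-101698847, plus strand: actttggagtctAGTTCTCagggag
Traf6, chr2:101701347-101701371, plus strand: ctttgctactgcAGTTCTCaaacat
Irak1, chrX:74015388-74015412, minus strand: ctcagaggtcaaAGTTCTCatgctt
Irak1, chrX:74015372-74015396, minus strand: ctcatgcttggaAGTTCTCatagtg
Traf6 held 4 matches in 4170 bases of 3′ UTR, Irak1 2 in 1526, Irak2 2 in 1246 and Tollip 1 in 2784, and the other 6 genes held none. Of 21760 UTRs searched 10.57% held a match. Of 1532 UTRs close in length to that of Traf6, 32.05% held a match and 0.2% held at least 4, and of 3081 UTRs near the length of Irak1, 11.65% held a match and 0.81% at least 2. Among these 4 genes Traf6 and Tollip were lower in LPS and Irak1 and Irak2 were not called, where 22.4% of all genes tested were higher and 22.5% lower. With the correction for gene length the call of Traf6 was lost (edgeR adjusted p = 0.423). Irak1 was then called higher (edgeR adjusted p = 0.00656), and Tollip stayed lower. The part of miR-146a in these levels was not tested. The hairpin gene Mir146 had 2, 2, 3, 0 and 2 counts in LPS mice and 1, 0, 2, 4 and 2 in saline mice, and mature microRNAs were not measured.

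**Figure D2:**
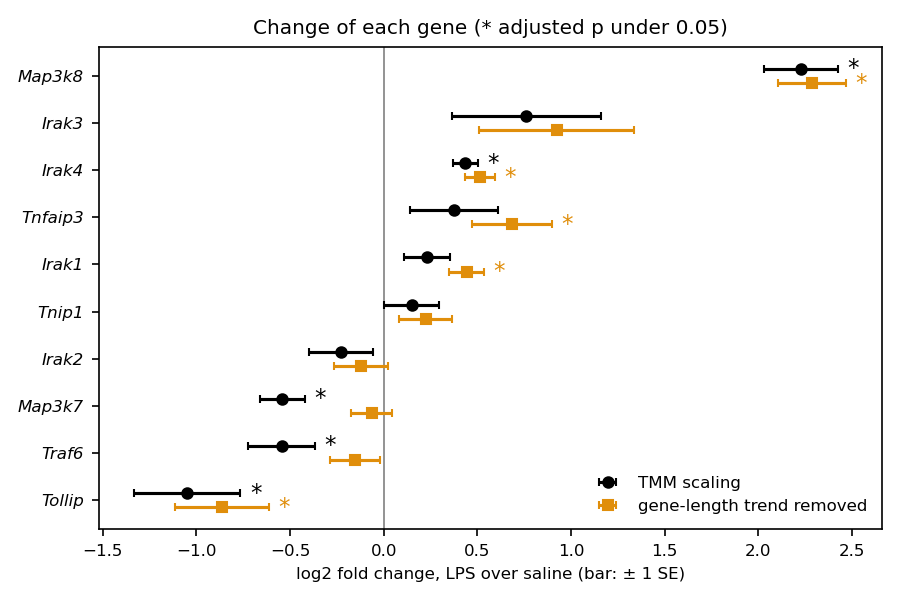
Log2 fold change of LPS over saline (horizontal axis, ± 1 SE from 5 and 5 mice) for the 10 genes, with TMM scaling (black circles) and with each library corrected for its length trend (orange squares). Stars mark an edgeR adjusted p under 0.05. Map3k8, Irak4 and Tollip carry a star in both, Traf6 and Map3k7 in the first only and Irak1 and Tnfaip3 in the second only.

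Long genes held a smaller share of counts in LPS libraries, and the calls of Traf6 and Map3k7 were lost once this trend was removed. The correction takes out any difference between the groups that goes with gene length, whatever its cause. The part of length in the lower levels of Traf6 and Map3k7 was not tested. With genes split by length into 5 classes of equal size, the longest class held 11.3% to 16.4% of counts in LPS and 16.1% to 20.2% in saline (exact p = 0.0159, two-sided permutation test). Map3k7 and Traf6 were longer than 91.8% and 85.6% of genes, while Map3k8 stood at 53.1% and Irak4 at 54.6%. With the trend removed, Traf6 had 20.8, 22.5, 24.2, 22.3 and 15.6 adjusted CPM in LPS mice and 25.4, 20.55, 26.0, 24.8 and 20.4 in saline mice. The groups overlapped for Traf6, as they did without the correction (log2 fold change -0.15 ± 0.13, edgeR adjusted p = 0.423). Map3k7 had 24.4, 17.7, 24.9, 21.0 and 25.8 adjusted CPM in LPS mice and 23.65, 21.4, 23.4, 26.15 and 24.15 in saline mice. No difference was called for Map3k7 either (log2 fold change -0.06 ± 0.11, edgeR adjusted p = 0.722).

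Under the same adjustment Irak1 had 111, 120, 103.5, 133 and 116 adjusted CPM in LPS mice and 81.25, 73.9, 83.1, 97.4 and 93.45 in saline mice. The groups no longer overlapped and Irak1 was called higher (log2 fold change 0.44 ± 0.09, edgeR adjusted p = 0.00656). Tnfaip3 was called higher too, with 60.3 ± 17.8 adjusted CPM in LPS and 37.5 ± 5.56 in saline (SD, n = 5 each; log2 fold change 0.68 ± 0.21, edgeR adjusted p = 0.00974). Map3k8, Irak4 and Tollip kept their calls, at log2 fold changes of 2.29, 0.51 and -0.86. In this fit 4 of the 10 genes were higher and 1 was lower, where 21.0% and 19.4% of 12183 genes were, 40.4% in all.

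Per gene length, Map3k8 stood highest of the 10 genes in LPS and at rank 5 in saline. The authors' RPKM (reads scaled to gene length and library size) allow levels of different genes to be compared. In LPS Map3k8 had 54.3 ± 12.1 RPKM, followed by Irak1 (27.7 ± 3.73), Irak4 (20.4 ± 1.81), Irak2 (15.6 ± 3.66), Tnfaip3 (11.4 ± 3.38), Tnip1 (10.3 ± 1.96), Tollip (6.63 ± 2.31), Traf6 (3.01 ± 0.598), Map3k7 (2.54 ± 0.286) and Irak3 (1.36 ± 0.650) (SD, n = 5). In saline the order was Irak1 (23.1 ± 2.76), Irak2 (17.9 ± 2.23), Irak4 (14.8 ± 0.925), Tollip (13.5 ± 1.77), Map3k8 (11.35 ± 1.95), Tnip1 (9.05 ± 1.03), Tnfaip3 (8.58 ± 1.41), Traf6 (4.30 ± 0.633), Map3k7 (3.61 ± 0.486) and Irak3 (0.780 ± 0.211) (SD, n = 5). Ranges of neighbours did not overlap for Map3k8 and Irak1 or Irak1 and Irak4 in LPS, or for Irak2 and Irak4, Tnfaip3 and Traf6 or Map3k7 and Irak3 in saline. All other neighbours overlapped. Traf6 and Map3k7, through which the signal passes to the IkB kinases, were scarcer than every IRAK gene other than Irak3 in both groups.

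**Figure D3:**
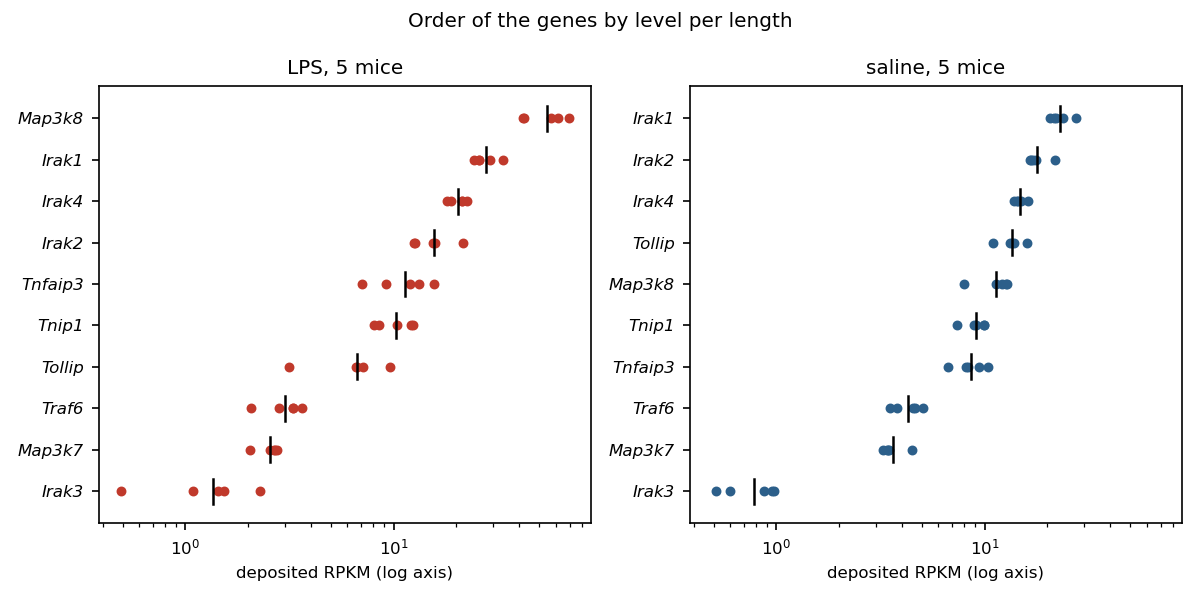
Deposited RPKM (horizontal log axes) of the 10 genes in 5 LPS mice (left) and 5 saline mice (right), sorted by the mean (black line). Map3k8 lies at 42.0 to 69.2 RPKM in LPS and 8 to 12.8 RPKM in saline, and Irak3 is the lowest gene in both.

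Ratios of RPKM within a library show how the makeup of the relay differed, whatever factor scales the library. They do not cancel a trend with gene length. Map3k7 (longer than 91.8% of genes) and Traf6 (85.6%) were longer than Map3k8 (53.1%) and Irak4 (54.6%), and the part of length in their ratios was not tested. The pairs were chosen after values were seen and carry no test. Map3k8 over Map3k7 was 27.2, 20.5, 21.4, 22.3 and 15.6 in LPS mice and 3.66, 3.86, 3.29, 2.70 and 2.35 in saline mice. Irak2 over Irak1 was 0.485, 0.547, 0.635, 0.640 and 0.492 in LPS mice and 0.770, 0.831, 0.749, 0.793 and 0.741 in saline mice. The groups were apart for both ratios, although neither Irak1 nor Irak2 alone was called with TMM scaling. Traf6 over Irak4 (0.0973 to 0.191 in LPS, 0.241 to 0.365 in saline) and Tollip over Irak1 (0.122 to 0.292 in LPS, 0.457 to 0.776 in saline) were also apart. The ratio of Tnip1 to Tnfaip3 overlapped (0.714 to 1.15 in LPS, 0.854 to 1.37 in saline), as did those of Irak1 to Irak4 (1.09 to 1.78 and 1.35 to 1.99) and Irak3 to Irak4 (0.0270 to 0.107 and 0.0358 to 0.0701).

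**Figure D4:**
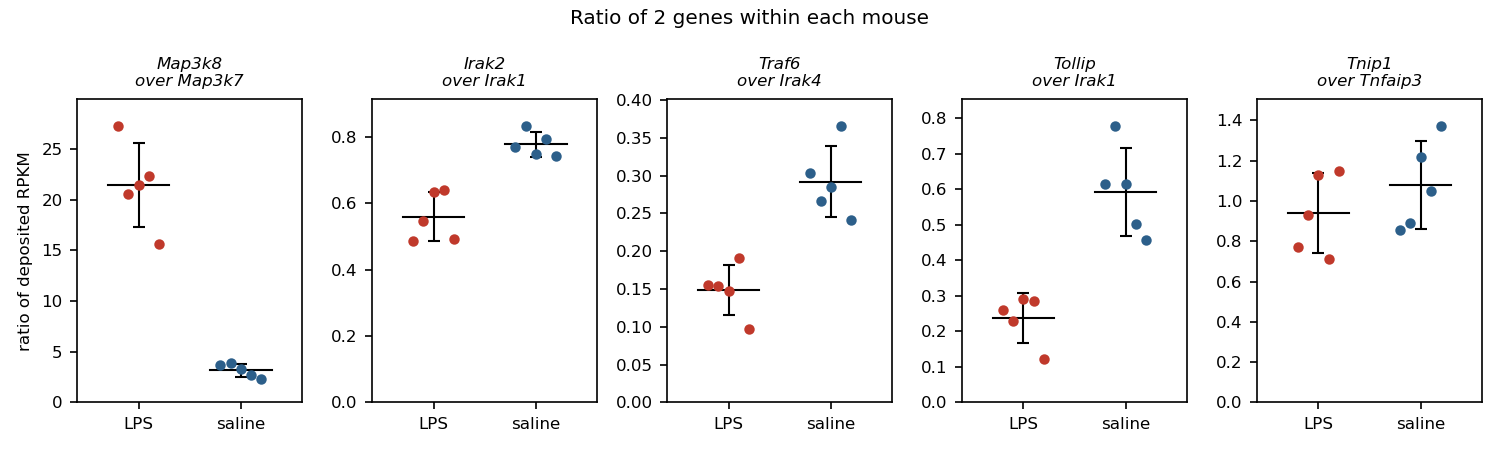
Ratio of the deposited RPKM of 2 genes within each library (vertical axes, starting at 0) for 5 LPS mice (red, left) and 5 saline mice (blue, right), with the mean and SD in black. Only Tnip1 over Tnfaip3 overlaps between the groups among the 5 ratios drawn.

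Some libraries stood low or high for several of the 10 genes. LPS mouse 4 was the highest LPS mouse for 5 genes and saline mouse 4 the highest saline mouse for 6. LPS mouse 5 was the lowest LPS mouse for 4 genes. Saline mouse 2 was the lowest saline mouse for 5 genes and saline mouse 5 for 4. Traf6, Tollip and Tnfaip3 were lowest in LPS mouse 5 and in saline mouse 5. The shortest length class held 26.2% of counts in LPS mouse 5 and 15.8% in saline mouse 5, the highest shares of their groups, and 18.3% in LPS mouse 4, 11.1% in saline mouse 4 and 11.3% in saline mouse 2. The part of gene length in these differences between mice of a group was not tested.

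Around these genes, 58 other genes of the relay were listed and 55 were tested; Traf4, Irak1bp1 and Tnip3 did not pass the filter. Of the 55, 15 rose and 16 fell, or 56.4% called against 45.0% of all genes tested, with a median log2 fold change of -0.10. TAK1 partners and IkB kinases fell for 4 of 8 and rose for 1, so 62.5% were called. Of all genes tested 45.0% were called, 22.4% higher and 22.5% lower. Tab2, which ties TAK1 to ubiquitin chains, had 93.5 ± 8.26 CPM in LPS and 162 ± 12.7 CPM in saline (edgeR adjusted p = 0.000129). Ikbkg, the regulatory subunit NEMO, had 48.5 ± 5.83 CPM in LPS and 83.55 ± 11.7 CPM in saline (edgeR adjusted p = 0.000478), a call that the length correction ended, at a log2 fold change of -0.15 (edgeR adjusted p = 0.375). Ikbke rose; it encodes an IkB kinase relative of interferon induction, with 7.22 ± 2.97 CPM in LPS and 0.948 ± 0.346 CPM in saline (edgeR adjusted p = 3.10e-05).

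Genes that write ubiquitin chains rose for 4 of 11 and fell for 2, or 54.5% called against 45.0% of all genes tested. Both Sharpin (76.9 ± 10.5 CPM in LPS and 45.5 ± 6.33 CPM in saline, edgeR adjusted p = 0.000706) and Rnf31 (30.2 ± 4.64 and 18.2 ± 1.68 CPM, edgeR adjusted p = 0.00143) encode parts of the linear ubiquitin ligase. Rbck1, which encodes another part of it, was not called (18.5 ± 1.84 CPM in LPS and 15.2 ± 1.40 CPM in saline, edgeR adjusted p = 0.126). Peli1, a ligase that acts on IRAK1, had 145 ± 17.99 CPM in LPS and 90.5 ± 12.1 CPM in saline (edgeR adjusted p = 0.00122). Other TRAF genes and adaptors rose for 5 of 10 tested and fell for none, so 50% were called, close to the 45.0% of all genes, of which 22.4% rose and 22.5% fell. Tank, a TRAF-binding regulator, had 135 ± 21.5 CPM in LPS and 60.7 ± 12.6 CPM in saline (edgeR adjusted p = 8.63e-05). Traf1 was scarce in both groups, with 3.06 ± 0.724 CPM in LPS and 0.803 ± 0.425 CPM in saline (edgeR adjusted p = 0.00168). Tifa, which binds TRAF6, had 200.1 ± 14.2 CPM in LPS and 145 ± 14.8 CPM in saline (edgeR adjusted p = 0.00689).

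Partners of A20 and other brakes rose for 3 of 14 tested and fell for 6, or 64.3% called against 45.0% of all genes. Dok3, an adaptor that restrains TLR4 signalling in macrophages, had 31.1 ± 4.39 CPM in LPS and 9.88 ± 1.79 CPM in saline (edgeR adjusted p = 4.86e-06). Zc3h12a, which encodes the RNA-degrading enzyme Regnase-1, had 4.49 ± 0.570 CPM in LPS and 1.48 ± 0.169 CPM in saline (edgeR adjusted p = 0.000289). Itch, a ligase that works with A20, had 45.55 ± 6.89 CPM in LPS and 79.4 ± 11.2 CPM in saline (edgeR adjusted p = 0.000589). MAP kinase steps rose for 2 of 12 and fell for 4, so 50% were called, close to the 45.0% of all genes. Mapkapk2, a kinase downstream of p38, had 16.6 ± 3.22 CPM in LPS and 8.73 ± 1.09 CPM in saline (edgeR adjusted p = 0.00101), while Map2k6, an activator of p38, had 12.7 ± 2.71 CPM in LPS and 22.7 ± 3.397 CPM in saline (edgeR adjusted p = 0.00236). Mapk8, which encodes JNK1, had 11.7 ± 3.04 CPM in LPS and 21.0 ± 2.66 CPM in saline (edgeR adjusted p = 0.00286).

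**Figure D5:**
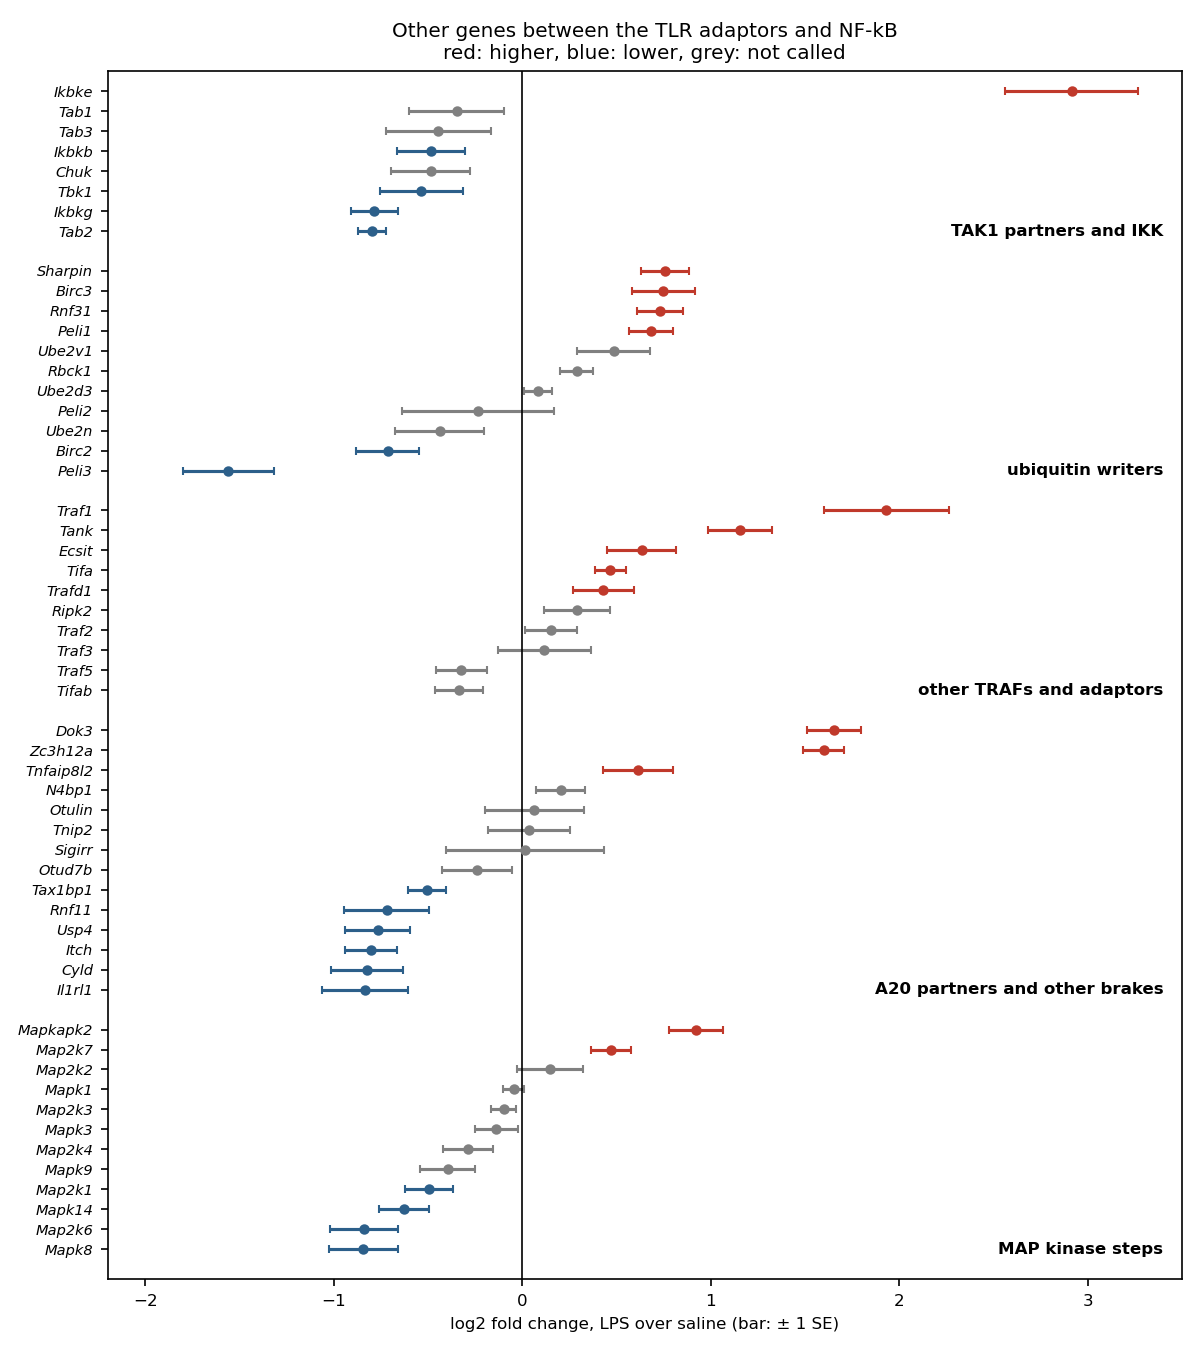
Log2 fold change of LPS over saline (horizontal axis, ± 1 SE from 5 and 5 mice) for 55 tested genes of 5 lists around the relay. Red points are higher, blue points lower and grey points not called at an edgeR adjusted p of 0.05, and each list holds calls, with TRAFs and adaptors holding no lower call.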

How the data were processed

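RNA was measured in microglia sorted from 5 LPS and 5 saline mice, 1 library per mouse. From each, 5 ng of RNA went into a SMARTer amplification, per the labels, and no molecular identifiers are named. The authors deposited raw counts for each gene. The submitters' processing notes list featureCounts, GRCm38 and mm10. Aligner, annotation and strand setting are not stated in the labels or headers. The authors also deposited normalised RPKM, in which all values with at least 20 counts and 1 RPKM were within 2% of the count multiplied by a library factor and a gene factor. From these relative gene lengths were taken for 12183 genes. Of 40789 genes 13224 had no count, 1 line with no gene name was left out, and 15 names turned into dates were restored from the Entrez ID.

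The main test was edgeR 4.0.16 under R 4.3.3 (TMM factors, filterByExpr, quasi-likelihood F test, Benjamini-Hochberg at 0.05 over all genes tested). Standard errors come from log2 CPM with a prior count of 2, and with the length trend removed from log2 adjusted CPM without a prior count. For the length trend, the mean log2 CPM of each gene over all libraries was subtracted from its value in each library. A lowess curve (span 0.3) of these differences over log2 relative length was fitted in each library and entered as an offset. Single values were compared by exact two-sided permutation tests (scipy 1.17.1, Python 3.11.15). Tests were run first on simulated counts. Every pair of libraries within a group differed by more than sampling noise (chi-square per degree of freedom at least 14.6). Alternatives were other scalings, filters, DESeq2 1.42.0, limma-voom (limma 3.58.1), limma on log2(RPKM + 1) or log2(RPKM + 0.1), ranges of mouse numbers as a term, and each mouse left out. Genes and lists were chosen with earlier results of these data known. The rule named, of each of 5 pathway lists, the 3 called genes with the smallest adjusted p. Rbck1 was named besides, as another part of the linear ubiquitin ligase, and its fold change was not followed under the alternatives.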

Additional observations from a re-analysis of the deposited data

Results flagged for a closer look

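Of 68 groups of 5 mice checked for a mouse far from its group by Dixon's test at 95%, 6 were picked out, where chance picks about 1 in 20. Saline mouse 4 was high for Irak2 (76.9 CPM, next mouse 60.1) and for Map3k7 (35.6 CPM, next mouse 27.1). LPS mouse 5 was low for Ikbkg at 38.4 CPM, and saline mouse 2 was low for Zc3h12a at 1.19 CPM. Among sums of markers, saline mouse 1 was high for neutrophil markers at 1.12 CPM and saline mouse 2 for endothelial markers at 72.3 CPM. Without saline replicate 4, Map3k7 was still called lower (log2 fold change -0.45) and Irak2 was not called (log2 fold change -0.14).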

How the results depend on the processing

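Counts and fold changes were recomputed under 22 alternatives (12 settings and 10 fits without 1 mouse), except that Traf1 had no value in 3 of them (both RPKM fits with a minimum and the length correction), and marker sums under 11 (scaling by library size alone and each mouse left out). Map3k8, Irak4, Tollip and Tnip1 kept their direction and their side of the threshold in all of them, and no gene of the 10 changed sign. Removing the length trend gave 4 genes higher and 1 lower, against 2 and 3; the alternative's own construction shifts long genes up in LPS. The number of the 10 genes called was 4 to 6, that of pathway genes 27 to 35 and that of all genes 4927 to 7166. Without each mouse in turn, the difference in marker sums (LPS minus saline) was 4.67 to 10.88 CPM for border macrophages, called higher without LPS replicate 4 (exact p = 0.0159), -14.55 to -7.36 for oligodendrocytes, called lower without LPS replicate 2 (exact p = 0.0317), and -1.02 to 0.172 for astrocytes, where it turned positive without LPS replicate 5 (0.172) or saline replicate 2 (0.129); the cause was not tested. Scaling by library size alone gave a median log2 fold change over all genes of -0.08, the farthest from 0 of the alternatives run. No paired analysis was possible because the mouse numbers in the labels are not shared between groups, and replicates 1 to 5 here only name mice in accession order. With ranges of mouse numbers as a term 5702 genes were called. Within the 3 ranges of mouse numbers (2 against 2, 1 against 2 and 2 against 1 mice) Traf6 differed by -0.49, -0.59 and -0.36 (log2 CPM) and Irak3 by 0.61, 0.46 and 0.60, while Irak1 (0.34, -0.04 and 0.29) and Tnip1 (0.55, 0.03 and -0.14) changed sign. The other 6 genes kept their sign. Low counts limit Irak3, at 21 to 106 counts per library.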
